A study of Rattus norvegicus with 6 samples.

Results

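The genes described here encode transporters of amino acids, GABA and related compounds. They are the rows of the deposited table whose symbol belongs to solute carrier family SLC1, SLC3, SLC6, SLC7, SLC36, SLC38 or SLC43, plus RGD1566368, which the table describes as similar to Slc6a20. The rule gave 44 of the 14607 genes listed. It holds no measured value, but RGD1566368 came in by its description and not by a family symbol. The paper had already named RGD1566368 as highly enriched in mcPCs. LOC361914 and LOC292543, also described as similar to genes of these families, were not added and are given at the end. Messenger RNA was sequenced from 3 samples of vascular smooth muscle cells (VSMCs) and 3 samples of mid-capillary pericytes (mcPCs), taken from the brain cortex of male Sprague-Dawley rats aged 4 to 5 weeks, with no treatment or transgene in either group. The sample names share the marks DN, DL and DK between the cell types, and each sample came from pooled animals. VSMCs were sorted by their binding of the lectin GSA-FITC from arterioles held back on a filter, after removal of cells carrying CD31 or CD11b. The mcPCs are what remained of the filtrate once cells with CD31, CD11b, GLAST or O4 had been taken out, so no pericyte antigen selected them. The 10 VSMC markers examined were all at least 2-fold higher in VSMCs, and the 9 pericyte markers were all at least 2-fold higher in mcPCs. Many of them, such as Casq2, Pdlim3, Atp13a5, P2ry14 and Ggt1, are genes that the paper named as specific to a cell type from these same data. The counts are therefore a description and no independent support for the identity of the cells. Of 6 markers of mural cells in general, 3 were at least 2-fold higher in VSMCs (Notch3, Mcam and Des) and 1 in mcPCs (Pdgfrb). Des is also counted among the VSMC markers, and the paper describes it as apparently highly specific for VSMCs. It describes Mcam, Cspg4, Rgs5 and Pdgfrb as expressed at similar levels in both cell types.

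The table gives 1 authors' mean per cell type for each gene and nothing per sample. A spread between isolations and a test across samples therefore cannot be given for any gene, and each ratio below is a description of 2 means. Abundance within a cell type is given as TPM, a unit of transcript abundance that takes transcript length into account and has the same total in every sample. The ratio between the cell types is the log2 ratio of the authors' mean normalized counts, mcPC over VSMC, so that positive values are higher in mcPCs. For members given in full, it is followed by an exact 95% counting interval (Clopper-Pearson). The interval was computed from the reads summed over the samples of a cell type, rounded to whole numbers. It covers counting error only, and neither the assignment of reads to genes nor the variation between animals. On average the genes listed drew 62.0 M reads (M, 1e6) in a VSMC sample and 48.0 M in a mcPC sample. TPM should not be divided between the cell types, because 15 genes of an erythrocyte list, all at least 2-fold higher in mcPCs, held 54.4% of the mean TPM of mcPCs and 0.723% of that of VSMCs. The median log2 ratio of mean TPM was -1.92 over genes with at least 0.8 TPM in VSMCs, whereas the median log2 ratio of normalized counts was 0.01 over all genes. In pools of cells such as these, a larger number of cells carrying a transcript and more of it per cell cannot be told apart.

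Solute carriers of these families move amino acids across membranes, and they divide the work by substrate and by driving force. SLC6 members couple uptake to sodium and chloride and carry GABA, glycine, proline, taurine, creatine and monoamines, ending the action of several transmitters. SLC1 members carry glutamate or small neutral amino acids, SLC38 members carry glutamine and other neutral amino acids, and SLC7 members exchange large neutral or cationic amino acids, many of them only when bound to a heavy chain of the SLC3 family. Some SLC36 transporters are driven by protons, and some SLC43 transporters carry large neutral amino acids by facilitated diffusion. In the brain these carriers set the supply of amino acids across the blood-brain barrier and keep extracellular transmitters low.

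Promoter sequences are shown for 4 SLC6 genes that differed between the cell types, RGD1566368 and Slc6a12 as genes higher in mcPCs and Slc6a17 and Slc6a9 as genes higher in VSMCs. They are the 250 bases before the annotated start in RefSeq on GRCr8, 5′ to 3′ on the gene's strand, an assembly later than the Rnor_6.0 transcripts used for the counts. RefSeq names RGD1566368 Slc6a20b, and the first of its annotated starts is shown. Capitals mark TATAAA or GGGCGG on either strand.
RGD1566368 (chr8:132158423-132158672, minus strand): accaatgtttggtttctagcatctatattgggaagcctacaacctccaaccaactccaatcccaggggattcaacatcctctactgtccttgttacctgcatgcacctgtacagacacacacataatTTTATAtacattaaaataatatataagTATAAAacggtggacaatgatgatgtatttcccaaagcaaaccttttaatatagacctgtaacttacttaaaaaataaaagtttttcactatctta
Slc6a12 (chr4:156257268-156257517, plus strand): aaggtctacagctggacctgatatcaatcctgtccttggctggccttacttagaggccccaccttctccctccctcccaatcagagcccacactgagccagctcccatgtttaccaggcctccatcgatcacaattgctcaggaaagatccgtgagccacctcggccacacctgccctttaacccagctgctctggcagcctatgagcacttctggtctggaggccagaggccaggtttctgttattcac
Slc6a17 (chr2:197843884-197844133, minus strand): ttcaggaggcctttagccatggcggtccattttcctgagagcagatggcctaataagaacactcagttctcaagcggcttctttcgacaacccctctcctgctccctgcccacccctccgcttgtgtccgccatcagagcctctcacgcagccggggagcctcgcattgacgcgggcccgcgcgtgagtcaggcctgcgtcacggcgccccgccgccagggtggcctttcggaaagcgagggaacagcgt
Slc6a9 (chr5:136659826-136660075, plus strand): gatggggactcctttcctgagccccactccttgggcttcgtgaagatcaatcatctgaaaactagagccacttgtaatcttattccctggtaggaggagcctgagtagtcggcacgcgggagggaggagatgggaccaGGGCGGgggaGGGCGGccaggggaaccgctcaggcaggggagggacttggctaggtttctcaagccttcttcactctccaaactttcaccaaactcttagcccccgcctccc
The RGD1566368 window held TATAAA from 96 to 91 bases before the start and on the other strand from 123 to 118. The window of its other annotated start, chr8:132156040-132156289 on the minus strand, held neither motif. Promoters of Slc6a4 and Slc6a13 were not analysed here. The Slc6a9 window held GGGCGG from 112 to 107 and from 102 to 97 bases before the start, and the windows of Slc6a12 and Slc6a17 held neither motif. Over all 33469 promoters, 12.9% held TATAAA and 30.5% held GGGCGG on either strand. Among the 36 promoters matched by gene ID to 32 members, 4 held TATAAA and 15 held GGGCGG. The letters TGATGNAAN were found in 3 of the 36, those of Slc1a4, Slc38a1 and Slc7a1, against 3.38% of all promoters. A CArG box, the element bound by serum response factor, was found in none of the 36 and in 1.5% of all promoters. These are matches of letters within a window and do not show binding.

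Among the 44 genes, mcPCs had the higher level of 17 by at least 2-fold, VSMCs had the higher level of 6, and 21 lay between. RGD1566368, added by its description and already named by the paper as enriched in mcPCs, is counted in the 17. The share higher in mcPCs was 38.6%, beside 22.0% of all genes listed, and the share higher in VSMCs was 13.6%, beside 13.9%. At a 4-fold threshold, 13 members (29.5%) were higher in mcPCs beside 12.4% of all genes, and 4 members (9.09%) were higher in VSMCs beside 5.72%. The whole counting interval lay beyond 2-fold for the 17 and for the 6. The median log2 ratio of the members was 0.77, beside 0.01 for all genes. These shares depend on how the cell types are scaled to each other: 11 members were at least 2-fold higher in mcPCs and 24 in VSMCs when mean TPM was compared as it stands, which carries the shift of the median gene given above.

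**Figure D1:**
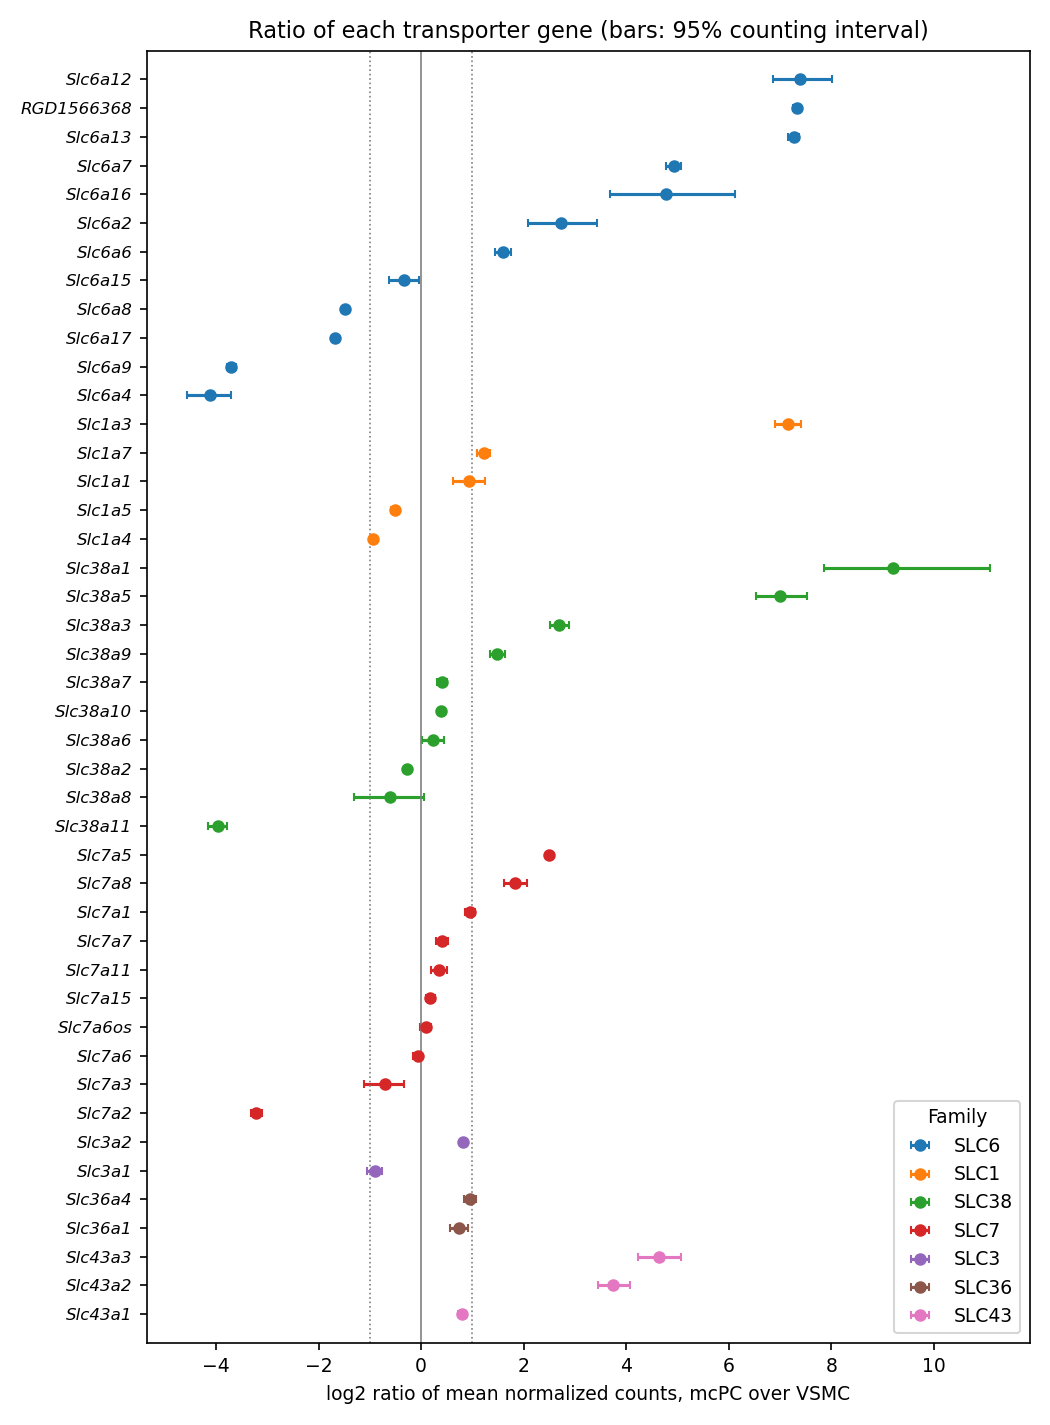
Log2 ratio of the authors' mean normalized counts, mcPC over VSMC, for each of the 44 genes, grouped and coloured by family. Bars are the 95% counting interval and dotted lines mark 2-fold. The points run from -4.12 for Slc6a4 to 9.21 for Slc38a1, with SLC6 genes near both ends.

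The levels themselves were spread over 4 orders of magnitude. In VSMCs 14 members reached 10 TPM, in mcPCs 8 did, and 5 reached it in both. Slc6a17 (681.8 TPM), Slc3a2 (178 TPM), Slc6a9 (86.9 TPM), Slc38a11 (84.6 TPM) and Slc6a8 (80.6 TPM) had the highest mean TPM in VSMCs. In mcPCs the order was RGD1566368 (449 TPM), Slc6a13 (132 TPM), Slc3a2 (87.8 TPM), Slc6a17 (61.7 TPM) and Slc7a5 (54.9 TPM). Slc6a17 and Slc3a2 thus stood in both lists, and the remaining leaders were different genes. Relative to all genes listed, 13 members lay above the median gene of VSMCs, which was at 12.7 TPM, and 16 above the median gene of mcPCs, at 3.59 TPM. There were 6 members under 0.8 TPM in both cell types.

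**Figure D2:**
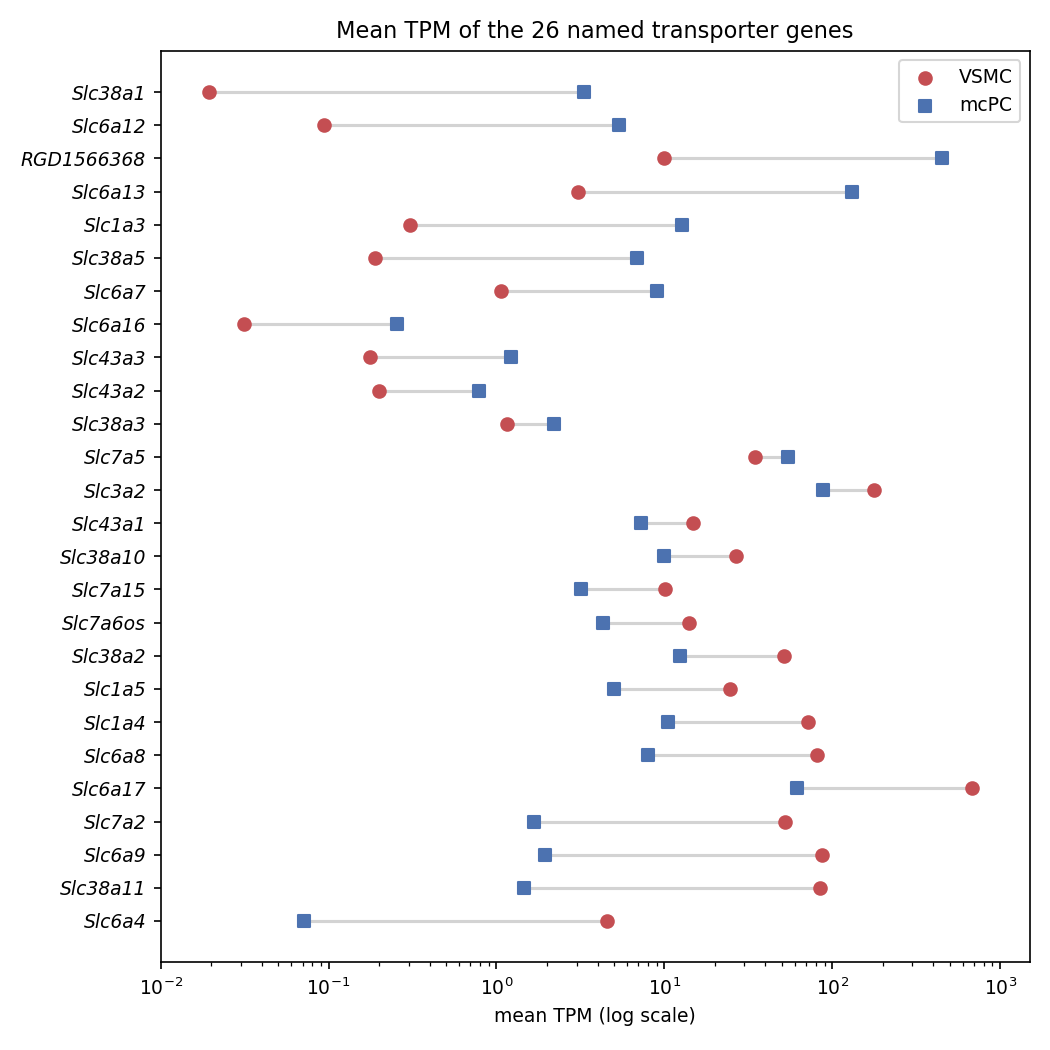
Mean TPM in VSMCs (circles) and mcPCs (squares) of the 26 genes with at least 10 TPM in a cell type, or with a 4-fold ratio and at least 100 reads, on a log scale. Genes are ordered by the ratio of normalized counts. From Slc3a2 down the VSMC value is the higher TPM, although Slc3a2 has a positive log2 ratio of normalized counts (0.81), because TPM of mcPCs is lowered for most genes.

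The SLC6 family, with 12 members, held the largest part of the summed TPM in both cell types, 58.8% in VSMCs and 73.4% in mcPCs. Most of its members differed: 7 had a level at least 2-fold higher in mcPCs, 4 had one at least 2-fold higher in VSMCs, and 1, Slc6a15, lay between. The 7 and the 4 are 58.3% and 33.3% of the family, beside 22.0% and 13.9% of all genes. The 7 include RGD1566368, which the paper had already named as enriched in mcPCs. RGD1566368 alone made up 49.3% of the summed TPM of the 44 genes in mcPCs and 0.673% in VSMCs, and Slc6a17 made up 6.77% in mcPCs and 46.0% in VSMCs. Ratios within a cell type do not depend on the scaling between cell types. In VSMCs Slc6a17 was 68.5 times RGD1566368 in TPM, and in mcPCs RGD1566368 was 7.28 times Slc6a17.

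**Figure D3:**
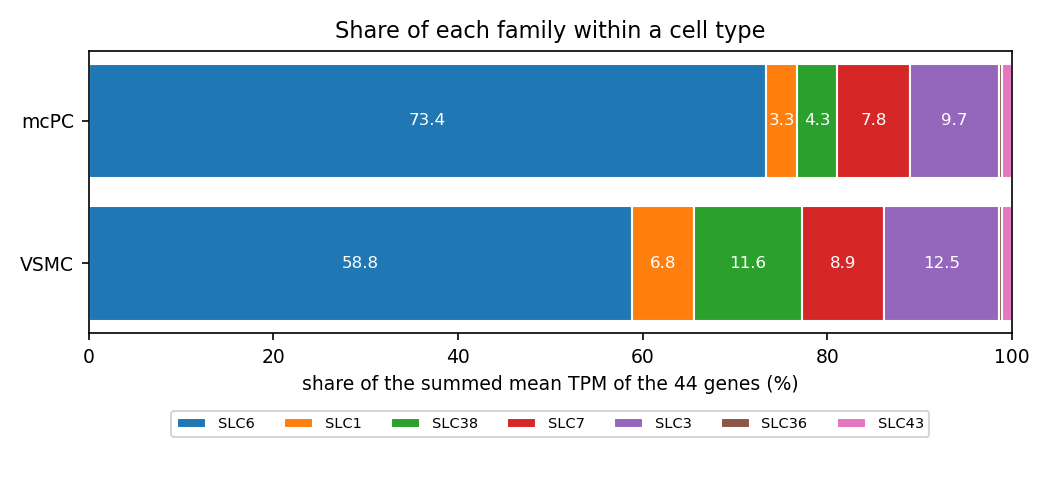
Share of each family, in percent, of the summed mean TPM of the 44 genes in VSMCs and in mcPCs. SLC6 takes 58.8% in VSMCs and 73.4% in mcPCs, SLC38 takes 11.6% and 4.35%, and SLC36 and SLC43 are the thin segments at the right.

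The SLC6 genes higher in mcPCs include carriers of GABA, betaine and proline. RGD1566368 (ENSRNOG00000006010) belongs with SLC6A20, a sodium-dependent carrier of proline and other imino acids. Its mean TPM was 9.96 in VSMCs and 449 in mcPCs, from 2109 and 176201 reads over the samples of each cell type. The log2 ratio was 7.32 (counting interval 7.26 to 7.38). In mcPCs 99.6% of the genes listed had a lower mean TPM, and in VSMCs 45.0% did. Slc6a13 encodes GAT2, which carries GABA, betaine and taurine. Its mean TPM was 3.06 in VSMCs and 132 in mcPCs, from 724 and 60498 reads, with a log2 ratio of 7.26 (7.16 to 7.37). Slc6a12 encodes BGT1, the betaine and GABA carrier. It had 0.0941 TPM in VSMCs against 5.34 TPM in mcPCs, from 27.3 and 2768 reads, a log2 ratio of 7.39 (6.86 to 8.01). Slc6a13 and Slc6a12 are adjacent in the RefSeq order of rat genes and their intervals overlapped. Slc6a13 was the more abundant of the pair in each cell type, 32.5 times Slc6a12 in VSMCs and 24.7 times in mcPCs. RGD1566368 likewise stood at 3.26 times Slc6a13 in VSMCs and 3.41 times in mcPCs, so that these 3 genes kept similar proportions at very different levels. At least 1 of the 2 read totals was not a whole number for each of these 3 genes, as for 16 of the 44 genes, so some of their reads may be shared with similar transcripts of other genes, and Slc6a20a, the neighbour of RGD1566368 in RefSeq, has no row among the genes listed.

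Slc6a7, a brain carrier specific for proline, had 1.06 TPM in VSMCs against 8.98 TPM in mcPCs, from 451 and 6386 reads. Its log2 ratio was 4.92 (4.78 to 5.06), below that of the 3 genes above. Slc6a16, an orphan member, was near the bottom of the range in both, at 0.0312 and 0.256 TPM from 7 and 112 reads. With so few VSMC reads its log2 ratio of 4.78 had an interval of 3.69 to 6.13. The taurine carrier Slc6a6 and the noradrenaline carrier Slc6a2 were the others above 2-fold. Slc6a6 had 2.0 TPM in VSMCs against 1.76 TPM in mcPCs with a log2 ratio of 1.60, a positive ratio that turned negative in mean TPM. Slc6a2 had 26.3 and 84.8 reads, a log2 ratio of 2.72 (2.09 to 3.43) at 0.109 TPM or less.

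The SLC6 genes higher in VSMCs carry glycine, creatine, serotonin and vesicular amino acids. Slc6a9 encodes GLYT1, the glycine carrier. Its mean TPM was 86.9 in VSMCs and 1.94 in mcPCs, from 30229 and 1252 reads, a log2 ratio of -3.70 (-3.78 to -3.62), or 13.0 times higher in VSMCs. Set against the proline carrier Slc6a7 within a cell type, Slc6a9 was 81.9 times as abundant in VSMCs, while Slc6a7 was 4.63 times as abundant as Slc6a9 in mcPCs. Slc6a4, the serotonin carrier, had 4.56 TPM in VSMCs against 0.0715 TPM in mcPCs, from 1717 and 48 reads, and its log2 ratio of -4.12 (-4.56 to -3.70) was the lowest of the 44 genes. Slc6a8, the creatine carrier, had 80.6 TPM in VSMCs against 8.04 TPM in mcPCs, with 36213 and 6676 reads and a log2 ratio of -1.49 (-1.53 to -1.45). Slc6a17, known as a carrier of neutral amino acids in synaptic vesicles of neurons, was the most abundant member in VSMCs. It had 681.8 TPM in VSMCs against 61.7 TPM in mcPCs, from 181946 and 54700 reads, and a log2 ratio of -1.68 (-1.69 to -1.67). Its mean effective length was 2241 bases in VSMCs and 4020 bases in mcPCs, a ratio of 1.79 exceeded by 8 genes of the table. Both TPM and the normalized counts are corrected for this length. With counts scaled without the erythrocyte list, and with no correction for length, its log2 ratio was -0.81, short of 2-fold. Slc6a15, the neuronal carrier of branched-chain amino acids and proline, had 0.818 and 0.187 TPM and a log2 ratio of -0.34.

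Of the 5 SLC1 genes, Slc1a3 and Slc1a7 were at least 2-fold higher in mcPCs and none was so in VSMCs. The share higher in mcPCs was 40% of a family of 5, beside 22.0% of all genes. Slc1a3 encodes GLAST, the glutamate carrier of astrocytes. It is also the antigen used to deplete astrocytes from the mcPC fraction, and it is among the astrocyte markers examined. Its mean TPM was 0.306 in VSMCs and 12.7 in mcPCs, from 133 and 10212 reads, a log2 ratio of 7.15 (6.90 to 7.41). Slc1a4 and Slc1a5, the carriers ASCT1 and ASCT2 of small neutral amino acids, had the opposite sign. Slc1a4 had 71.9 TPM in VSMCs against 10.5 TPM in mcPCs, from 31510 and 8613 reads, with a log2 ratio of -0.94 (-0.97 to -0.91). Slc1a5 had 24.5 and 5.03 TPM from 7337 and 2744 reads, with a log2 ratio of -0.51 (-0.58 to -0.45). Both fell short of 2-fold, and Slc1a4 stayed above Slc1a5 in each cell type, by 2.93 times in VSMCs and 2.09 times in mcPCs. The glutamate carriers Slc1a1 and Slc1a7 were low, at 3.0 TPM or less, with log2 ratios of 0.93 and 1.22, and that of Slc1a7 turned to -0.54 in mean TPM. The family as a whole held 6.76% of the summed TPM in VSMCs and 3.34% in mcPCs.

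Of the 10 SLC38 genes, 4 had a level at least 2-fold higher in mcPCs, 1 had one at least 2-fold higher in VSMCs, and 5 lay between. The shares were 40% and 10%, beside 22.0% and 13.9% of all genes. Slc38a1, the glutamine carrier SNAT1, had 0.0195 TPM in VSMCs against 3.34 TPM in mcPCs. Only 4 reads over the 3 VSMC samples lie behind it, against 1395 in mcPCs, so its log2 ratio of 9.21, the highest of the 44, ranged from 7.85 to 11.1. Slc38a5, a system N carrier of glutamine and glycine, had 0.190 TPM in VSMCs against 6.84 TPM in mcPCs, from 35 and 2404 reads, with a log2 ratio of 7.0 (6.52 to 7.53). It is a known gene of brain endothelium and stands in the endothelial list below. Slc38a3, the other system N carrier, had 1.15 and 2.19 TPM from 307 and 1051 reads, with a log2 ratio of 2.69 (2.51 to 2.88). Slc38a11 went the other way. It had 84.6 TPM in VSMCs, ranking 4 among the members there, and 1.46 TPM in mcPCs, from 6856 and 255 reads, with a log2 ratio of -3.97 (-4.15 to -3.79).

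Slc38a2, the widely expressed SNAT2, had 51.6 TPM in VSMCs against 12.4 TPM in mcPCs, from 27906 and 12279 reads, and a log2 ratio of -0.28 (-0.31 to -0.25), close to the median gene. Slc38a10 was also close to it, with 26.7 and 9.98 TPM from 11486 and 7919 reads and a log2 ratio of 0.40 (0.35 to 0.44). Slc38a2 was thus 271 times Slc38a5 in VSMCs and 1.81 times in mcPCs. Slc38a9, the arginine sensor of the lysosome, had a log2 ratio of 1.49 at 1.31 and 1.05 TPM, positive in normalized counts and negative in mean TPM. Slc38a6, Slc38a7 and Slc38a8 had log2 ratios between -0.60 and 0.41.

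Of the 10 SLC7 rows, Slc7a5 and Slc7a8 were at least 2-fold higher in mcPCs and Slc7a2 was at least 2-fold higher in VSMCs. These shares, 20% and 10%, lay near those of all genes, 22.0% and 13.9%. Slc7a5 is the light chain LAT1, which brings large neutral amino acids across the blood-brain barrier. It had 34.9 TPM in VSMCs against 54.9 TPM in mcPCs, from 13438 and 40304 reads, and a log2 ratio of 2.49 (2.46 to 2.52). Slc7a8, the related light chain LAT2, was low in both, at 0.567 and 0.562 TPM with a log2 ratio of 1.84, and its TPM ratio was marginally below 1. Slc7a2, a carrier of arginine and lysine, had 52.4 TPM in VSMCs against 1.67 TPM in mcPCs, from 14667 and 872 reads. Its log2 ratio of -3.21 (-3.31 to -3.11) corresponds to a level 9.26 times higher in VSMCs. The other carriers of cationic amino acids, Slc7a1 and Slc7a3, had log2 ratios of 0.95 and -0.71, so the 3 genes did not go together. Slc7a6, Slc7a7, Slc7a11 and Slc7a15 had log2 ratios from -0.06 to 0.41, Slc7a15 at 10.1 TPM in VSMCs against 3.19 TPM in mcPCs from 2771 and 1603 reads, with a log2 ratio of 0.18 (0.09 to 0.27). Slc7a6os matches the rule by its symbol but is the gene opposite to Slc7a6 and encodes no transporter. It had 14.1 and 4.33 TPM from 2210 and 1223 reads and a log2 ratio of 0.09 (-0.01 to 0.19), an interval that includes 0.

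Slc3a2, the heavy chain 4F2hc that carries Slc7a5 and related light chains to the membrane, was abundant in both cell types, at 178 TPM in VSMCs against 87.8 TPM in mcPCs. Its 39661 and 36613 reads gave a log2 ratio of 0.81 (0.79 to 0.83). Slc3a2 exceeded Slc7a5 by 5.12 times in VSMCs and by 1.60 times in mcPCs. A sum was taken over 5 light chains that pair with it, Slc7a5, Slc7a6, Slc7a7, Slc7a8 and Slc7a11. Slc7a15, at 10.1 TPM in VSMCs and 3.19 TPM in mcPCs, was not counted in it. The heavy chain stood at 3.44 times this summed TPM in VSMCs and 1.44 times in mcPCs. Slc7a5 made up 67.2% of that sum in VSMCs and 90.2% in mcPCs. Slc3a1, the heavy chain rBAT, had 6.49 TPM in VSMCs against 0.987 TPM in mcPCs, with a log2 ratio of -0.90, and its partner Slc7a9 has no row among the genes listed.

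SLC36 and SLC43 were the smallest parts of the summed TPM. Slc36a1, a proton-coupled carrier, and Slc36a4 had log2 ratios of 0.74 and 0.95 and at most 3.54 TPM. Slc43a1, the facilitative carrier LAT3, had 14.8 TPM in VSMCs against 7.28 TPM in mcPCs, from 2903 and 2632 reads, and a log2 ratio of 0.80 (0.72 to 0.87). The related LAT4, Slc43a2, had 0.199 and 0.792 TPM from 101 and 743 reads, with a log2 ratio of 3.75 (3.45 to 4.06). Slc43a3, a carrier of purine nucleobases, had 0.176 and 1.23 TPM from 52.1 and 689 reads, with a log2 ratio of 4.64 (4.23 to 5.08).

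The direction of the named genes was compared under other scalings of the same means. Of the 26 named, 18 were at least 2-fold different, 12 higher in mcPCs and 6 higher in VSMCs. All 18 had the same sign under each of the 5 other scalings tried. For Slc7a5 and Slc38a3 the log2 ratio of mean TPM as it stands was 0.65 and 0.93, short of 2-fold, and for Slc6a17 the exception is given above. Of the 8 named genes between the thresholds, Slc1a4, Slc1a5 and Slc38a2 were negative on every scale. Slc3a2, Slc43a1, Slc38a10, Slc7a15 and Slc7a6os were positive in normalized counts and negative in mean TPM. Slc3a2, for example, was at 0.81 in normalized counts, 0.25 with counts scaled to the same total and -1.02 in mean TPM.

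**Figure D4:**
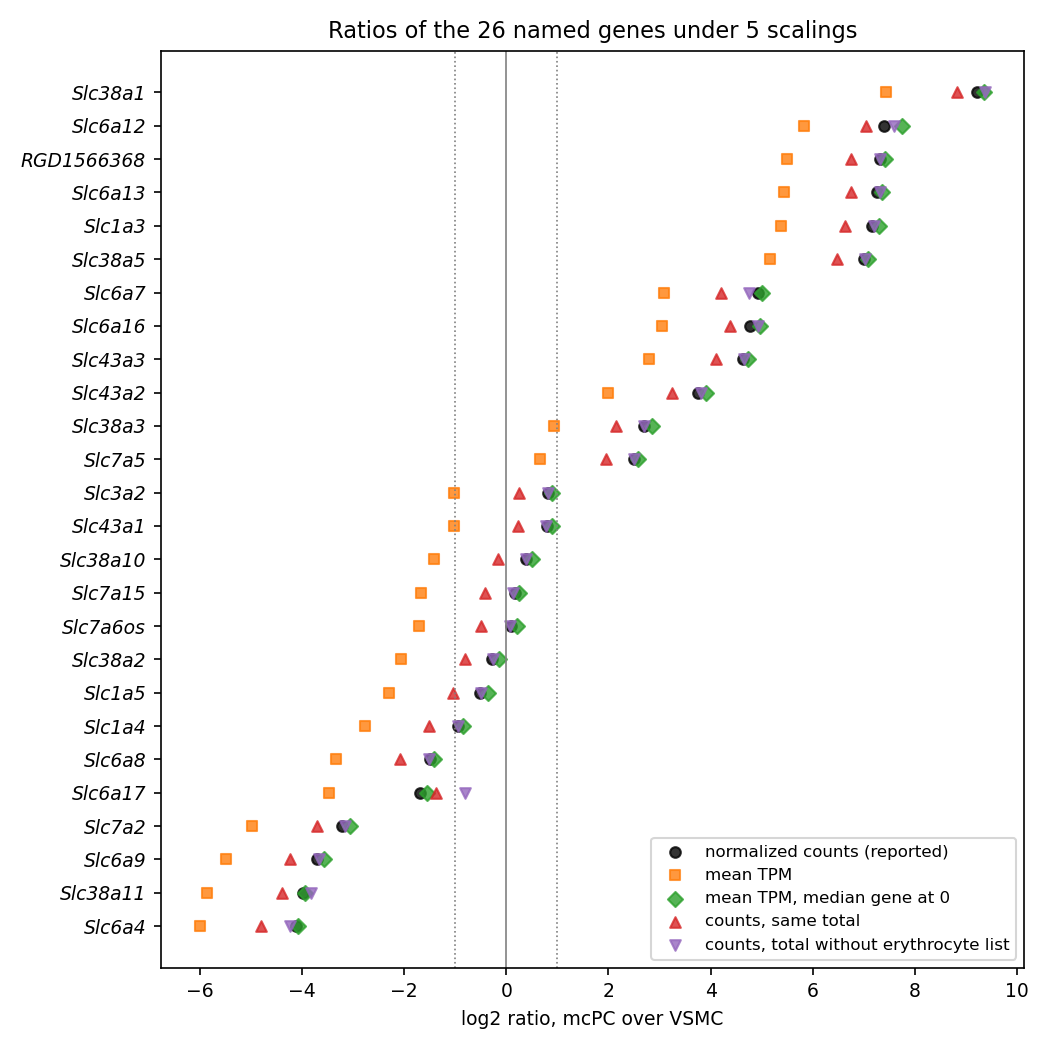
Log2 ratio, mcPC over VSMC, of the 26 named genes on 5 scales of the same means, with dotted lines at 2-fold. Mean TPM lies lowest for all 26, and the genes at both ends keep their sign on all 5.

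Genes of other cell types also stood higher in mcPCs, and their part in these ratios was not tested. The paper itself described a slight contamination of its mcPCs by erythrocytes and endothelial cells. Beside every marker count, here and elsewhere, stand the shares over all genes listed. These were 22.0% at least 2-fold higher in mcPCs and 13.9% in VSMCs. Of 24 endothelial markers 22 had a row, and 17 of these were at least 2-fold higher in mcPCs and none in VSMCs. Cldn5 had 0.643 TPM in VSMCs against 15.4 TPM in mcPCs, and Cd34 had 1.40 and 32.4 TPM, while Cdh5 had 1.48 TPM in mcPCs and Pecam1 has no row. The list summed to 756 TPM in VSMCs against 384 TPM in mcPCs, mostly from Esam and Slc2a1 in the VSMCs. Of 13 astrocyte markers 8 had a row, 5 of them at least 2-fold higher in mcPCs and 1 in VSMCs, summing to 817 and 372 TPM, mostly from Atp1b2. Aqp4 was near 0 in both (0.0539 and 0.0865 TPM), Gfap had 0.270 TPM in mcPCs and Gja1 2.68 TPM, whereas Aldh1l1 and Slc1a2 have no row. Slc1a3, at 12.7 TPM in mcPCs, lay above Aqp4, Gfap and Gja1 and below Atp1b2 (349 TPM). Gja1 and S100b had log2 ratios of 6.29 and 4.12, and Fgfr3 had one of -1.79. Of 16 neuronal markers 8 had a row and all 8 were at least 2-fold higher in mcPCs, from 3.79 TPM summed in VSMCs to 27.3 TPM in mcPCs, with Tubb3 at 15.7 TPM and Snap25 at 3.18 TPM in mcPCs and Rbfox3 and Syt1 without a row. Of 14 microglia and macrophage markers 6 had a row, all 6 at least 2-fold higher in mcPCs, summing to 0.749 and 24.5 TPM, with Ptprc at 15.1 TPM and Aif1 without a row. Of 10 oligodendrocyte markers 8 had a row, 7 of them at least 2-fold higher in mcPCs and summing to 11.5 and 16.4 TPM, with Mag without a row.

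Fibroblasts of the meninges are known for GABA and betaine carriers too. Of 14 fibroblast and meningeal markers 11 had a row, 7 at least 2-fold higher in mcPCs and 1 in VSMCs, with sums of 641 and 173 TPM. The log2 ratio was 5.04 for Ptgds (16.0 TPM in mcPCs), 2.04 for Igf2 (30.6 TPM), 1.54 for Dcn (16.9 TPM), -0.13 for Col1a1 (31.6 TPM), -0.63 for Col3a1 (56.5 TPM) and -1.86 for Foxc1 (13.5 TPM). RGD1566368 and Slc6a13, at 449 and 132 TPM in mcPCs, lay in the range of the 9 pericyte markers, whose TPM in mcPCs ran from 51.1 for Ggt1 to 1531 for Vtn. They lay in the range of the erythrocyte list as well, whose 15 genes had log2 ratios from 1.43 to 8.47, with Slc4a1 at 89.4 TPM, Ahsp at 308 TPM, Bpgm at 391 TPM and Alas2 at 1057 TPM in mcPCs. For RGD1566368 the paper also reports fluorescent in situ hybridization. Its probe stained mcPCs labelled for Pdgfrb, both as isolated cells and within capillaries, and left VSMCs unstained. Slc6a13 was not probed there. The other members with log2 ratios over 4 lay at 12.7 TPM or less, among endothelial, neuronal, microglial and lower erythrocyte markers.

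**Figure D5:**
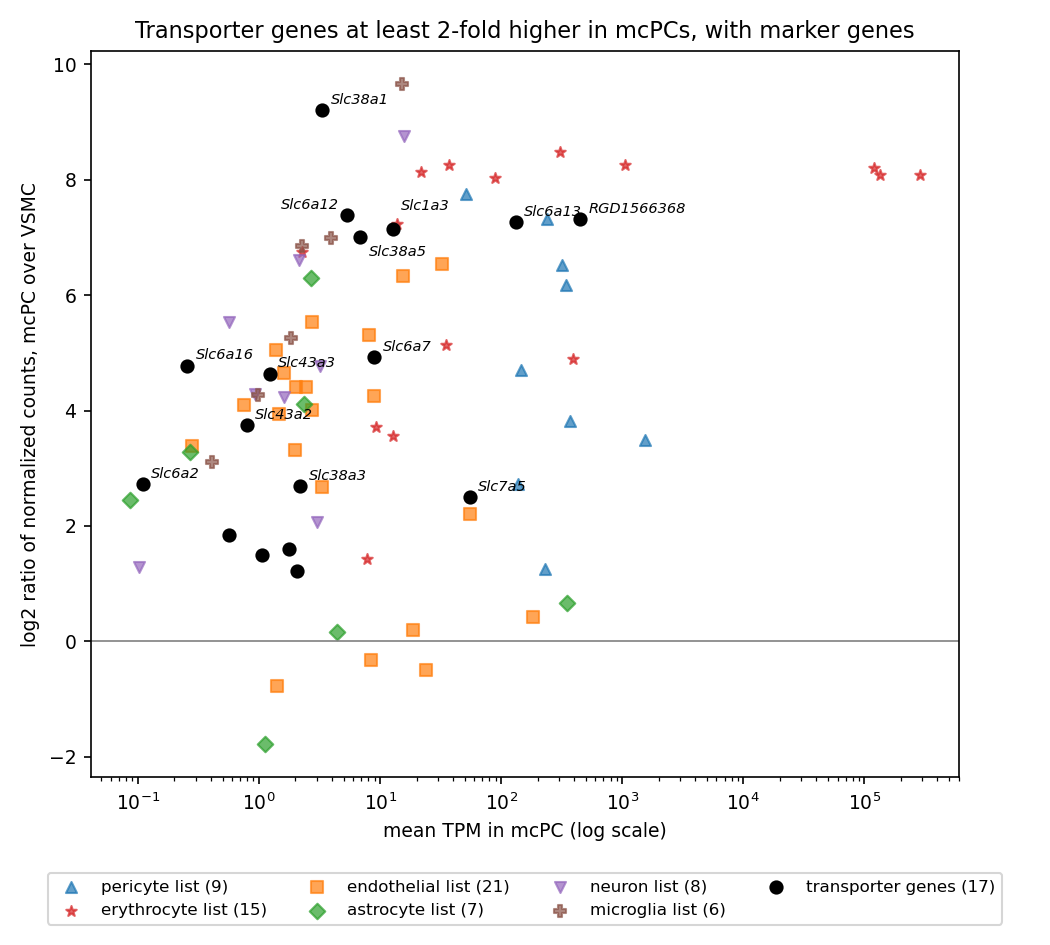
Log2 ratio of normalized counts, mcPC over VSMC, against mean TPM in mcPCs on a log scale, for the 17 transporter genes with a positive ratio of at least 2-fold (black) and for the marker genes of 6 cell types, with Slc38a5 and Slc1a3 drawn as transporters. RGD1566368 at 449 TPM and Slc6a13 at 132 TPM lie at levels where both pericyte and erythrocyte markers are found, and the remaining genes with ratios over 4 lie at 12.7 TPM or less.

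Genes that make, use or sense the transported compounds were counted in 10 lists. Over all genes listed, 22.0% were at least 2-fold higher in mcPCs and 13.9% in VSMCs, and these shares stand beside every list count below. The lists are short, and a count near those shares shows nothing particular to its genes. Of the GABA synthesis and breakdown genes 5 of 6 had a row, 4 of these at least 2-fold higher in mcPCs and none in VSMCs, with Gad1 at 2.55 TPM in VSMCs against 3.01 TPM in mcPCs and Gad2 at 0.566 TPM in mcPCs. Gad1 and Gad2 also belong to the neuronal markers. Of 20 GABA receptor genes 7 had a row, 5 of them at least 2-fold higher in mcPCs. Gabbr1, singled out after its values were seen, was the one receptor gene above 1 TPM, at 85.6 TPM in VSMCs against 24.6 TPM in mcPCs with a log2 ratio of 0.01. The glutamate and glutamine list had rows for all 8 genes, with 2 at least 2-fold higher in mcPCs and none in VSMCs.

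The gamma-glutamyl cycle takes up amino acids by way of glutathione. It had 8 of 10 genes listed, with 3 at least 2-fold higher in mcPCs and none in VSMCs. Ggt1, the surface enzyme of the cycle and a known pericyte gene, had 0.855 TPM in VSMCs against 51.1 TPM in mcPCs, from 115 and 13105 reads, with a log2 ratio of 7.75 (7.48 to 8.02). Gclm, a subunit of the enzyme that begins glutathione synthesis, had 14.4 and 26.5 TPM and a log2 ratio of 2.74. The list for taurine, cysteine and creatine synthesis had 5 of 8 genes listed, 2 higher in mcPCs and 1 in VSMCs. Cbs, which starts cysteine synthesis from homocysteine, was at 16.1 and 34.4 TPM with a log2 ratio of 2.89, and Csad, which makes the taurine precursor hypotaurine, was at 54.4 and 3.76 TPM with a log2 ratio of -2.03.

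In the amino acid starvation response all 11 genes had a row, and 4 were at least 2-fold higher in VSMCs and 2 in mcPCs. Atf4, which induces carriers such as Slc7a11 and Slc3a2 under stress, had 1254 TPM in VSMCs against 83.1 TPM in mcPCs, a log2 ratio of -2.10. Atf3 had 652 and 8.15 TPM, a log2 ratio of -4.56, and Cebpb had 551 and 6.17 TPM, a log2 ratio of -4.69. Asns, a target of Atf4, was in the opposite direction at 5.16 and 5.90 TPM, with a log2 ratio of 2.05. The arterioles that gave VSMCs were digested again with harsher enzymes, and the cell type and the dissociation cannot be told apart here.

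Genes of mTORC1 sensing stayed near the median gene, with 15 of 19 listed, 1 at least 2-fold higher in mcPCs (Slc38a9, a member) and 1 in VSMCs (Rragd). Branched-chain amino acid breakdown had all 7 genes listed, with 1 higher in mcPCs and none in VSMCs. Serine, glycine and proline metabolism had 13 rows for 12 of 14 symbols, with 6 higher in mcPCs and 1 in VSMCs. Aldh18a1 is counted on both sides, because its rows went opposite ways. One had 1.04 TPM in VSMCs against 1.13 TPM in mcPCs and a log2 ratio of 2.01. The other had 24.6 and 2.52 TPM and a log2 ratio of -1.52. Of 19 other transporters of amino acids and related compounds, 13 had a row, 7 at least 2-fold higher in mcPCs and 1 in VSMCs.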

How the data were processed

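Reads were single-end, from stranded polyA libraries sequenced in 4 runs each. Per the labels and the study's methods, the authors trimmed and filtered reads with Eoulsan, quantified them with Salmon 0.8.0 against Ensembl transcripts of Rnor_6.0, took gene totals with tximport and normalized these with DESeq2. Genes lacking a read in any sample were dropped. The deposited TPM values are the authors' means for each cell type. The estimated counts deposited by the authors were averaged over runs: multiplied by 12 runs, 74.3% of VSMC values and 75.2% of mcPC values came out whole (tolerance 0.06 reads), and these products are the reads over 3 samples. The normalized counts are signal values, the authors' counts divided by normalization factors that include effective length. Mean effective lengths were also deposited. The table's log2 fold changes, standard errors and p-values, raw and adjusted, hold the authors' own comparison and were not used.

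Members, lists and thresholds were chosen with earlier results of these data known. With means only, no test was run. A ratio of at least 2-fold was counted, and the same share was computed over all 14607 genes. Counting intervals were computed from rounded read totals and placed on the normalized scale by the gene's own factor. Full values are given for members with at least 10 TPM in a cell type, or with a 4-fold ratio and at least 100 reads in the higher cell type. From the pathway lists, genes with at least 10 TPM and a 4-fold ratio are named, with others as examples, and marker genes are given as examples. Lists were matched by symbol and promoters by gene ID to RefSeq (GRCr8). A list of partner proteins of the transporters is not reported here. Recovery of ratios centred on the median gene and coverage of the counting interval were tested on simulated Poisson counts. These had no variation between samples, and the authors' normalization was not simulated. Tables were handled in Python 3.11.15 with pandas 2.3.3 and numpy 2.4.6, intervals computed with scipy 1.17.1 and plots drawn with matplotlib 3.10.9.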

Additional observations from a re-analysis of the deposited data

How the results depend on the processing

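The 17 members at least 2-fold higher in mcPCs and the 6 in VSMCs rest on the authors' normalized counts, with a median log2 ratio of 0.77. With mean TPM as it stands the counts were 11 and 24 and the median -1.05, beside a median of -1.79 over all genes. With mean TPM centred on the median gene they were 20 and 6, with a median of 0.87, beside 0.12 over all genes. With counts scaled to the same total they were 15 and 11, with a median of 0.22, beside -0.55 over all genes. With at least 0.8 TPM required in VSMCs, which 33 members reached, the count for mcPCs was 8. By construction that filter leaves out members low in VSMCs, and scaling to the total or to TPM carries the erythrocyte transcripts. Other alternatives gave 13 to 18 and 4 to 6. Shares over all genes were computed on normalized counts only, at 2-fold and 4-fold, so the other counts stand without them. Of the 17, 4 turned negative in mean TPM as it stands (Slc1a7, Slc6a6, Slc7a8 and Slc38a9). No other ratio of at least 2-fold changed sign on the scales tried. No paired analysis was possible because the table holds only means of each cell type. For the same reason samples could not be left out in turn. Counting error limits Slc38a1, Slc6a16, Slc6a2 and Slc6a12 in VSMCs, with 4, 7, 26.3 and 27.3 reads, and Slc38a8 in mcPCs, with 26.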

Other observations

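Some transporter rows and family genes stood outside the comparisons. LOC361914 and LOC292543, which the table describes as similar to Slc7a12 and Slc7a3, fall outside the symbol rule. LOC361914 had 0.205 TPM in VSMCs against 0.0656 TPM in mcPCs, with a log2 ratio of 0.03. LOC292543 had 0.370 and 0.106 TPM, with a log2 ratio of 0.00. In RefSeq, 22 protein-coding genes of these families have no row among the genes listed, among them the GABA carrier Slc6a11, the astrocyte glutamate carrier Slc1a2, and Slc6a20a.

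Effective lengths differed by over 10% between the cell types for 3 members and for 4.27% of all genes. The members were Slc6a17 (2241 bases in VSMCs and 4020 in mcPCs), Slc38a11 (672 and 821) and Slc6a2 (4959 and 4096). Their normalized counts are corrected for that difference, and the transcripts behind it were not analysed here.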
